A study of Mus musculus with 38 samples.

Results

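Cell cycle and DNA replication genes were followed in mouse livers after a single dose of the carcinogen N-nitrosodiethylamine (DEN). The set was a list of 40 genes for cyclins, replication factors and mitotic proteins, and its members were every array probe that the platform annotation assigned to 1 of these symbols alone. There were 72 such probes among 36607, covering 39 genes of the 17501 that had a probe of their own. Ccnb1, which encodes cyclin B1, had no such probe and was not measured here. Of the 39 genes, 19 had 1 probe and 20 had from 2 to 4. The probe listed first in the value table is called the lead probe of its gene, and other probes are given by number.

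The 20 male mice formed 4 groups of 5. Controls carried the hepatocyte Cre transgene alone (Alb-Cre +/-, strain label B6129), and knockouts carried it together with 2 floxed Met alleles (Alb-Cre +/-; Met Fl/Fl, strain label 129SV/C57BL6), so genotype and strain label cannot be told apart. Both received 10 µg DEN per gram of body weight intraperitoneally at 14 days of age. The labels give treatment times of 3 and 5 months and ages of 12 and 20 weeks, which do not match, so how long after the dose the livers were taken is unclear. Cre is driven by the albumin promoter, so the floxed gene is targeted in hepatocytes and other liver cells keep it. Each whole liver was compared on 2-colour arrays with 1 reference, RNA pooled from 5 wild-type livers of 12-week-old B6/129 males.

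Values are log2 ratios of liver over reference, 1 per mouse, so 0 is the level in the pooled normal liver only as far as the arrays are centred. Array medians of the deposited ratios were not at 0. With liver in Cy5 they ran from -0.649 to -0.337 at 3 months and from -0.101 to 0.089 at 5 months. With liver in Cy3 they ran from -0.385 to -0.167 and from -0.272 to -0.035. A ratio compares 1 probe between samples and says nothing about which of 2 genes is more abundant. The deposited ratio was read as Cy5 over Cy3, which the labels do not state, and with the other reading every direction given here is reversed. In whole-liver RNA, fewer cycling cells and less RNA per cycling cell cannot be told apart. The Cy5 array of 5-month control 4 correlated at r = -0.61 to -0.48 with the Cy5 arrays of 3 months across probes, but at 0.70 with its own turned Cy3 array. The 3-month and 5-month arrays were also run in separate series of experiment numbers, so age and array series cannot be told apart. Of the 5-month mice, 3 knockouts and 0 controls were in series B, so genotype and array series are partly mixed at that age. Met itself, read by 1 probe, was not lower in knockouts (log2 difference 0.42 ± 0.21 SE, adjusted p = 0.655 at 3 months and -0.05 ± 0.21, adjusted p = 0.979 at 5 months, limma). Whether that probe lies in the deleted part of Met is unknown, so it is no check of the labels.

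Cells enter the cycle when D-type cyclins, among them cyclin D1 (Ccnd1), activate kinases that free E2F factors such as E2F1. E2F-driven genes then supply the DNA replication machinery: the MCM helicase, its loading factor CDC6, CDC45, which joins MCM in the active helicase, the sliding clamp PCNA, and ribonucleotide reductase and thymidylate synthase for deoxynucleotides. Later, cyclins A2 and B with CDK1, together with FOXM1 and the MuvB complex, drive the genes of mitosis. The products of these genes build the spindle, guard chromosome attachment and end mitosis through ubiquitination. Adult hepatocytes are mostly quiescent, and the liver returns to the cycle after injury or loss of tissue. Hepatocyte growth factor acting through Met is a known mitogen for hepatocytes.

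Replication and mitosis genes differ in the promoter elements they are known for, which is why 6 stretches are shown. They are the 120 bases before the annotated RefSeq start (GRCm38.p6), 5′ to 3′ on the gene's strand, with matches to 3 motifs in capitals: the cell cycle genes homology region CHR (TTTGAA or TTTAAA), the CCAAT box bound by NF-Y (CCAAT) and the E2F site (TTTGGCGC, TTTGCCGC, TTTCGCGC or TTTCCCGC), each on either strand, so that ATTGG is a reversed CCAAT. Top2a (DNA topoisomerase II alpha), Cdk1, Kif11 (a spindle motor) and Ube2c (a ubiquitin-conjugating enzyme of anaphase) stand for mitosis, and Mcm6 (a helicase subunit) and Rrm1 (ribonucleotide reductase large subunit) for replication.
Top2a, chr11:99024190-99024309, minus strand: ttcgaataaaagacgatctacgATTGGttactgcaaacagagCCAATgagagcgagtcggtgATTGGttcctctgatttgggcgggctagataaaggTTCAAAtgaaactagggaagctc
Cdk1, chr10:69352913-69353032, minus strand: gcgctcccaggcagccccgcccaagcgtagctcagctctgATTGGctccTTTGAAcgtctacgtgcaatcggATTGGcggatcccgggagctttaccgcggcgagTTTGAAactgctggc
Kif11, chr19:37376262-37376381, plus strand: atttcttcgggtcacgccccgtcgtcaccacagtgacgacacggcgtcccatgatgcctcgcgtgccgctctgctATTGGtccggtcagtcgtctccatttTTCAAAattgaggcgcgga
Ube2c, chr2:164769809-164769928, plus strand: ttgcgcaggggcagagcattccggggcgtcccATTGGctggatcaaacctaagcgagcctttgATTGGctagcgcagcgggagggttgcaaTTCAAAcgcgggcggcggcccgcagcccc
Mcm6, chr1:128359706-128359825, minus strand: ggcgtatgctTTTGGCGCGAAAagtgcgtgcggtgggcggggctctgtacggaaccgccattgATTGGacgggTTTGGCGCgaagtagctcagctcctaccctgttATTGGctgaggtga
Rrm1, chr7:102441575-102441694, plus strand: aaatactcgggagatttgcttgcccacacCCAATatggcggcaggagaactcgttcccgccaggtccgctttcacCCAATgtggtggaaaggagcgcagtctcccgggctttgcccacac

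The 4 mitotic stretches each held at least 1 CHR and at least 1 CCAAT box, Cdk1 with 2 CHR matches and Top2a with 3 CCAAT boxes. Mcm6 held 3 E2F matches, counted on both strands and some overlapping, with 2 CCAAT boxes, and Rrm1 held 2 CCAAT boxes alone. Of the 40 genes, 31 had a promoter in the RefSeq table used, 33 promoters in all. Over the whole window of 250 bases before to 50 after the start, a CHR stood in 63.6% of these 33 against 27.6% of all 32851 promoters. A CCAAT box stood in 78.8% against 37.4%, and an E2F site of these spellings in 18.2% against 2.26%. By role, 12 of 15 genes of kinases and checkpoint, spindle, anaphase and chromosome structure, a count that leaves out Cdk1, had a CHR, 12 a CCAAT box and 0 an E2F match, while among 11 replication and deoxynucleotide genes 4 had a CHR, 9 a CCAAT box and 5 an E2F match. Cdk1, listed with the cyclins, had an E2F match in the wider window, upstream of the stretch shown. A match is a description of letters, not of binding, and the arrays do not measure these factors at DNA.

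How well a probe repeated differed between the roles. For a mouse with both dye orientations, the difference between its turned arrays, divided by 2, measures array error. The median SD of this quantity was 0.23 over the 12 replication and deoxynucleotide lead probes at 3 months and 0.49 over the 18 mitosis lead probes, against 0.28 over all probes. At 5 months the values were 0.18, 0.35 and 0.21. Ranked among all probes of the array at 3 months, from small to large error, the replication genes Mcm5, Pcna and Mcm3 stood at percentiles 28.1, 30.1 and 40.8, but Mcm2, Cdc45 and Cdc6 at 78.9, 80.5 and 93.9. Of the mitosis genes, Cdc20 stood at 98.6, Top2a at 98.4, Tpx2 at 97.1 and Nusap1 at 96.7, but Prc1 at 8.08, Aurkb at 23.7, Birc5 at 23.9 and Bub1 at 25.2, so both roles held probes of either kind. Top2a and Mki67 (percentile 85.9), common marks of proliferation, were thus among the less repeatable probes here. The signal behind a ratio was not part of the values, so whether these probes were dim was not tested.

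**Figure D1:**
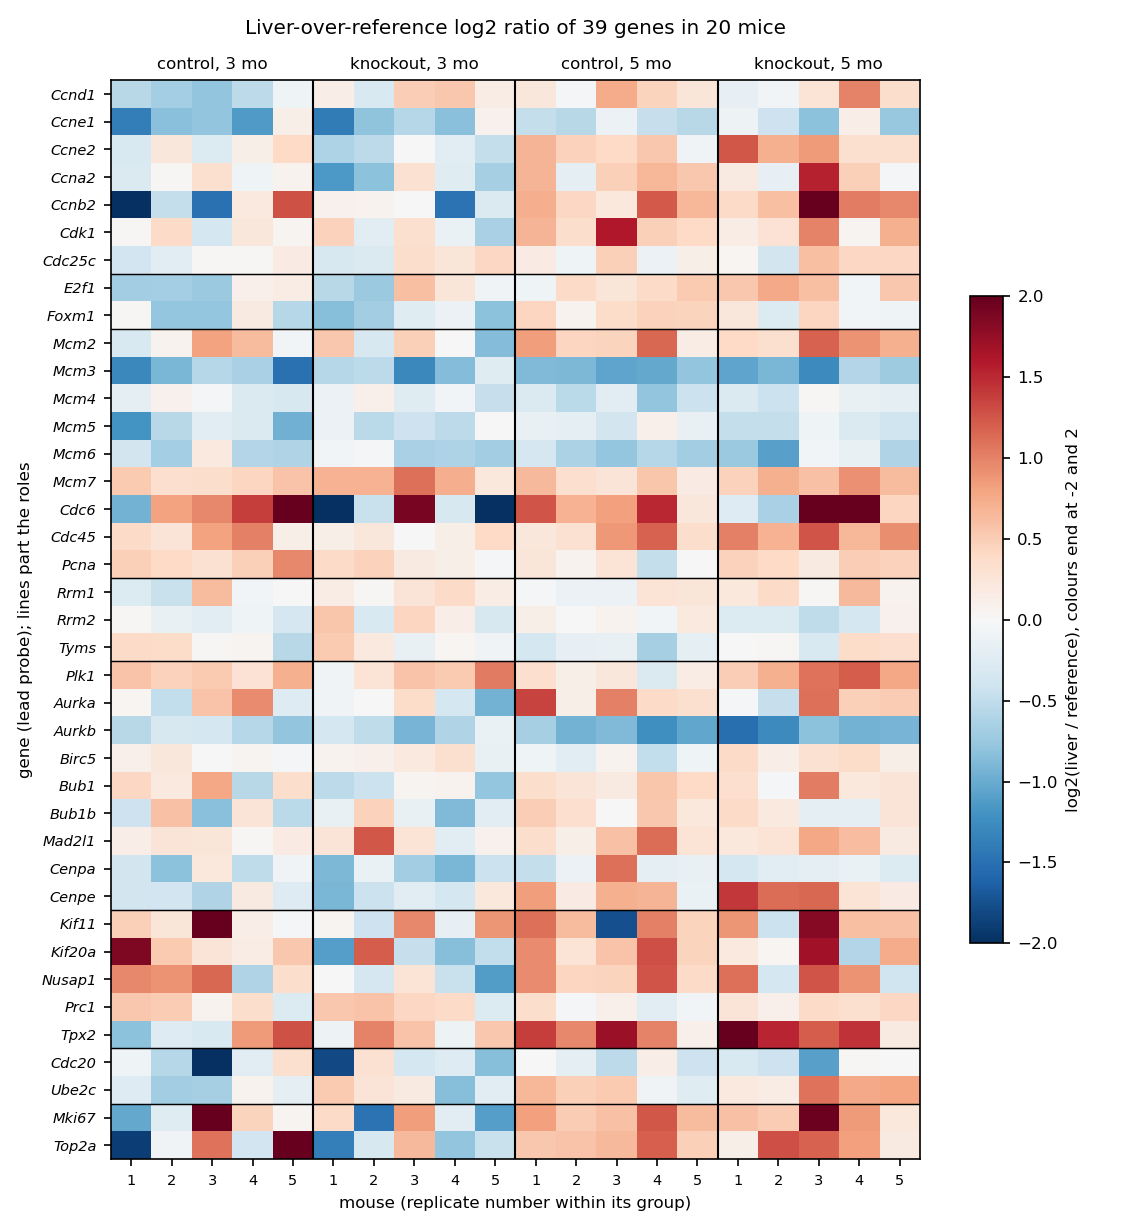
Log2 ratio of liver over reference (colour, ends at -2 and 2) for the lead probe of each of 39 genes (rows, parted by role) in each of 20 mice (columns, by group and replicate number). Mcm3 and Aurkb are below the reference in all 20 mice and Mcm7 is above it in all 20, while Top2a, Mki67 and Ccnb2 spread to both sides at 3 months and lie above 0 in all 10 mice of 5 months.

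Against the pooled normal liver, a handful of replication and mitosis genes stood on 1 side in every group. Mcm3 and Mcm6, helicase subunits, Aurkb, the kinase of the chromosomal passenger complex, and probe 3 of Cdc6 were called lower in all 4 groups, and Mcm7 was called higher in all 4. They are 5.56% (lower) and 1.39% (higher) of the 72, and the same was true of 4.09% and 1.46% of all probes. In the 5-month groups 48 (controls) and 51 (knockouts) of 72 member probes had a mean above the reference, 66.7% and 70.8% against 58.5% and 60.8% of all probes. At 3 months it was 35 and 18, 48.6% and 25% against 44.2% and 35.9%. Among those called higher in both 5-month groups were the spindle protein Tpx2, Cdc45, Ccne2 and Mcm2.

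Mcm3 had mean log2 ratios of -0.98 ± 0.40 (SD, n = 5) in 3-month controls, -0.70 ± 0.40 in 3-month knockouts, -0.93 ± 0.11 in 5-month controls and -0.91 ± 0.27 in 5-month knockouts. Its 5-month control mice were at -0.89, -0.90, -1.05, -1.02 and -0.79, and no mouse of any group reached the reference (adjusted p from 6.86e-05 to 0.00128, limma). In single orientations of the 4 groups, the Mcm3 mean lay between -1.15 and -0.68, so both dyes gave the same side. Mcm7, from the same hexameric helicase, was on the other side. Its means were 0.44 ± 0.10, 0.69 ± 0.32, 0.39 ± 0.21 and 0.66 ± 0.17 in the same order, with adjusted p from 0.000136 to 0.00986 (limma). Mcm7 probe 2 lay on the low side (-0.29, -0.16, -0.26 and -0.25, not called), and probes 2 and 3 of Mcm6 were not called in any group. Probes of the other subunits lay on either side: Mcm4 probe 1 was called lower in 5-month controls alone, Mcm5 lower in 3-month controls and 5-month knockouts, Mcm6 lower throughout, and Mcm2 higher in both 5-month groups (0.60 ± 0.39 and 0.70 ± 0.35).

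Aurkb was at -0.52 ± 0.19 and -0.50 ± 0.30 in 3-month controls and knockouts and at -0.95 ± 0.21 and -1.10 ± 0.29 at 5 months. The 5-month knockouts were at -1.51, -1.28, -0.83, -0.95 and -0.92, all lower than the reference by well over the spread between mice of that group (adjusted p = 9.07e-06, limma). Aurka, the related kinase of spindle poles, was at 0.63 ± 0.52 in 5-month controls, a called value, and at 0.32 ± 0.59 in 5-month knockouts, which was not called. Cdc6, which loads the helicase onto origins, had probes on opposite sides: at 5 months probe 2 was called higher (0.92 ± 0.40 in controls, 0.91 ± 0.56 in knockouts) and probe 3 lower (-0.83 ± 0.26 and -0.89 ± 0.23). Which of these probes reads the Cdc6 transcript better was not tested.

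Among the 3-month groups, 16 of 72 member probes were called against the reference in controls, 6 higher and 10 lower, and 12 in knockouts, 2 higher and 10 lower. The shares of 22.2% and 16.7% compare with 29.9% (12.3% higher and 17.6% lower) and 28.2% (10.6% and 17.6%) of all probes. At 5 months, 23 were called in controls, 12 higher and 11 lower, and 26 in knockouts, 17 higher and 9 lower. These shares, 31.9% and 36.1%, are near the 29.2% (14.7% higher and 14.5% lower) and 29.5% (17.1% and 12.4%) of all probes. With each array centred on its median the splits became 7 higher and 6 lower (3-month controls), 4 and 7 (3-month knockouts), 8 and 14 (5-month controls) and 14 and 13 (5-month knockouts). The shares of all probes with centred arrays are not given here, so these splits do not set the members apart from the array. The median member probe was at -0.02 and -0.17 in 3-month controls and knockouts, and at 0.25 and 0.26 at 5 months, with the median of all probes at -0.06, -0.12, 0.09 and 0.11.

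Tpx2, which activates Aurora A on the spindle, had the highest 5-month means among lead probes. Its 5-month controls were at 1.39, 0.96, 1.73, 0.99 and 0.10, and its knockouts at 2.40, 1.53, 1.21, 1.44 and 0.17. In each group 4 of the mice stood at 0.96 or higher and replicate 5 stood near the reference. The called means were 1.03 ± 0.61 (SD) and 1.35 ± 0.80 (adjusted p = 0.0149 and 0.00306, limma). Cdc45, a part of the active helicase, was called higher in 3-month controls (0.52 ± 0.38), 5-month controls (0.59 ± 0.41) and 5-month knockouts (0.91 ± 0.24). Ccne2, cyclin E2, was called higher in both 5-month groups (0.40 ± 0.29 and 0.69 ± 0.39), and Ccne1, cyclin E1, lower in both 3-month groups (-0.80 ± 0.57 and -0.70 ± 0.54).

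Other members were called against the reference in some groups only. E2f1, the S-phase transcription factor, was higher in 5-month knockouts (0.48 ± 0.31 SD), as was Ube2c (0.59 ± 0.41), and Mad2l1, of the spindle checkpoint, was higher in 5-month controls (0.49 ± 0.39). Foxm1 was lower in 3-month knockouts (-0.55 ± 0.35). Cdc25c, the phosphatase that activates CDK1, had probe 2 lower in 3-month controls and both 5-month groups (-0.30 ± 0.14, -0.34 ± 0.13 and -0.40 ± 0.31) and probe 3 higher in both 5-month groups (0.67 ± 0.26 and 0.74 ± 0.58). Bub1, Bub1b, Ccna2, Ccnb2, Kif11, Kif20a, Prc1 and Rrm1 were not called in any group.

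Mki67, whose protein coats mitotic chromosomes and marks cycling cells in pathology, was above the reference in all 10 mice of 5 months on its lead probe. The 5-month controls were at 0.82, 0.51, 0.58, 1.24 and 0.63 (mean 0.75 ± 0.29), and the knockouts at 0.59, 0.51, 1.96, 0.86 and 0.21 (mean 0.83 ± 0.67). Neither mean was called, with adjusted p = 0.105 and 0.0791 (limma). The test uses 1 spread per probe over all 20 mice, and the Mki67 SDs at 3 months were 1.18 in controls and 0.97 in knockouts. Mki67 probe 2 gave 0.57 ± 0.18 and 0.43 ± 0.54, with knockout 2 at -0.12. All 5 mice lay above the reference for 30.1% of all probes in 5-month controls and 24.1% in 5-month knockouts. Top2a gave 0.69 ± 0.29 and 0.72 ± 0.55, also above 0 in all 10 mice and not called (adjusted p = 0.182 and 0.165, limma). Cdk1 was called in 5-month controls (0.70 ± 0.52, adjusted p = 0.00848, limma) and not in 5-month knockouts (0.44 ± 0.40, adjusted p = 0.0703). The count for 5-month controls was 10 without control 4, 11 without control 1, 13 without control 3, and 12 without the Cy5 array of control 4 or 3 with that array turned. The count for 5-month knockouts was 13 without knockout 3, 17 without knockout 1 and 10 without knockouts 2 and 3. These counts stand without the share of all probes under the same setting, so they do not set the members apart from the array.

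At 3 months the dyes gave different pictures. Before any dye correction, the median gap between a group's Cy5 and Cy3 means was 0.89 and 1.00 over member probes in 3-month controls and knockouts, and 0.29 and 0.42 at 5 months; over all probes it was 0.75, 0.73, 0.25 and 0.38. Both orientations put 21 of 72 member probes on the same side of the reference in 3-month controls, 22 in 3-month knockouts, 62 in 5-month controls and 45 in 5-month knockouts. These are 29.2%, 30.6%, 86.1% and 62.5% of the members, and 37.4%, 37.4%, 73.9% and 55.4% of all probes did the same. Nusap1, a spindle microtubule protein, shows the extreme: in 3-month controls its mean was -3.67 with liver in Cy5 and 4.77 with liver in Cy3, and the mean of both was 0.55. Values below are means over both orientations, in which a dye effect cancels, except in 5-month knockouts 2 and 3. Those mice have 1 array each, from which the dye effect of the other 18 mice was subtracted. Of these 18, 10 were mice of 3 months, where the dye gap was larger. The values of knockouts 2 and 3 depend on that correction, which has opposite signs in the 2 mice.

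The median of the member probes is best read beside the median of all probes of the same mouse. Mice of 3 months had member medians from -0.28 to 0.10 with array medians from -0.16 to 0.02, and mice of 5 months had member medians from -0.04 to 0.44 with array medians from -0.04 to 0.20. The lowest and highest of the 5-month mice on both measures were knockouts 2 and 3, the mice with 1 array. With each array centred, the median member difference of 5 against 3 months was 0.02 in controls and 0.10 in knockouts.

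**Figure D2:**
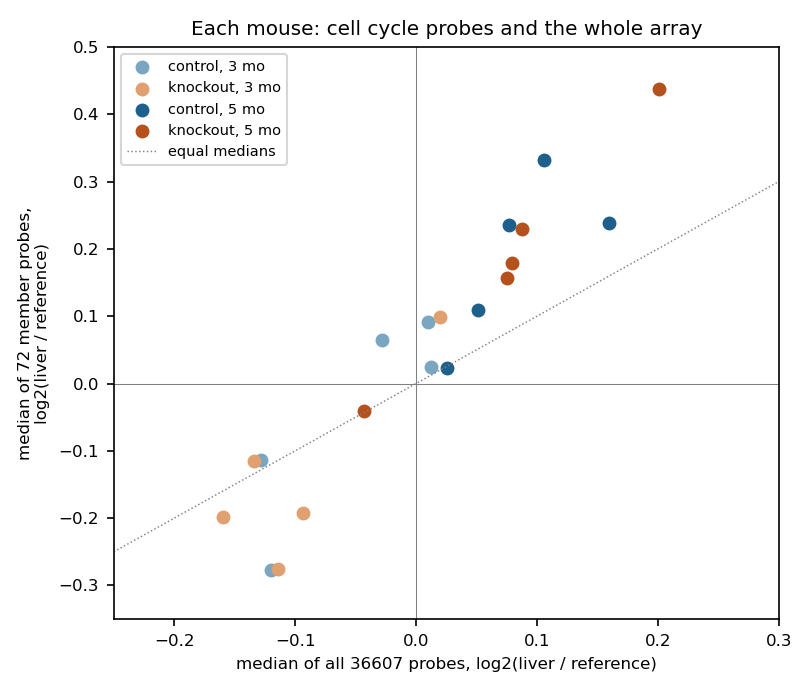
Median log2 ratio of the 72 member probes (vertical axis) against the median of all probes (horizontal axis) for each of 20 mice, coloured by group, with a dotted line where both are equal. Member medians run from -0.28 in 3-month control 1 to 0.44 in 5-month knockout 3, and most 5-month mice lie above and to the right of the 3-month mice.

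The first genotype comparison asks whether the targeting of Met in hepatocytes went with other levels of these genes at 3 months. No member probe was called, 0 of 72 against 0.0355% of all probes (limma, adjusted p under 0.05). At an unadjusted p under 0.05 there were 7 (9.72%, against 7.96% of all probes), 1 higher and 6 lower in knockouts (2.14% and 5.82% of all probes). The lower ones were probes of Kif20a, Nusap1, Bub1, Cenpe, Cenpa and Rrm2, and the higher one was Ccnd1. The median member difference was -0.07 against -0.02 over all probes. By role, the medians of the lead probes were 0.10 for cyclins and CDK1, -0.01 for replication, 0.22 for deoxynucleotide supply, -0.05 for mitotic kinases and checkpoint, -0.35 for the spindle and -0.65 for Mki67 and Top2a.

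Ccnd1 gave the smallest p of any member at 3 months. Its controls were at -0.55, -0.68, -0.80, -0.52 and -0.09 and its knockouts at 0.13, -0.30, 0.49, 0.54 and 0.16. All 5 knockouts lay above the control mean, and the groups overlapped through knockout 2 and control 5. The difference was 0.73 ± 0.21 SE (95% confidence interval 0.28 to 1.18), 1.66-fold, with an adjusted p of 0.286 (limma). Both orientations gave the same direction, 0.82 with liver in Cy5 and 0.64 with liver in Cy3. Within array series C and D, which split the 3-month mice, it was 0.59 and 0.70. The other probes of Ccnd1, numbers 2, 3 and 4, gave -0.06, -0.11 and 0.20.

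The largest 3-month difference belonged to the lead probe of Cdc6, at -1.52 ± 0.74 SE. Its controls were at -0.95, 0.80, 0.96, 1.38 and 2.04 and its knockouts at -2.21, -0.44, 1.90, -0.32 and -2.30. Knockout 3 stood among the highest controls, and the interval of the difference, -3.07 to 0.03, spans 0 (adjusted p = 0.637, limma). Cdc6 probes 2 and 3 gave -0.67 and 0.10. Kif20a, a kinesin of cytokinesis, was at 1.87, 0.52, 0.26, 0.15 and 0.54 in controls and at -1.10, 1.22, -0.46, -0.86 and -0.49 in knockouts, a difference of -1.01 ± 0.43 (adjusted p = 0.565, limma). Control 1 and knockout 2 stood apart from their groups, and without control 1 the difference was -0.71. Without knockout 2 it was -1.39.

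Nusap1 was at 0.95, 0.90, 1.15, -0.60 and 0.35 in 3-month controls and at -0.01, -0.34, 0.27, -0.45 and -1.11 in knockouts. Every knockout lay below the control mean, but the difference of -0.88 ± 0.37 (adjusted p = 0.559, limma) was 0.43 in the Cy5 arrays and -2.19 in the Cy3 arrays. Bub1, the kinase of the spindle checkpoint, was at 0.41, 0.19, 0.77, -0.55 and 0.35 against -0.53, -0.43, 0.06, 0.07 and -0.77, a difference of -0.55 ± 0.23 (adjusted p = 0.543, limma). Probe 2 of Cenpe, a kinesin of the centromere, gave -1.40 ± 0.52, with controls from 0.53 to 2.39 and knockouts from -1.44 to 1.10. Cenpe probes 1 and 3 had means of -0.29 and 0.41 in controls and -0.34 and -0.07 in knockouts. Rrm2 probe 4, for the small subunit of ribonucleotide reductase, was the only member probe without overlap: controls from 0.10 to 0.39 and knockouts from -0.11 to 0.07, a difference of -0.26 ± 0.12 (adjusted p = 0.613). Without overlap and lower were 0.929% of all probes, and Rrm2 probe 1 pointed the other way (0.26).

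Common marks of proliferation varied widely between mice of 1 group at 3 months. Mki67 was at -1.03, -0.24, 2.15, 0.45 and 0.06 in controls and at 0.38, -1.48, 0.84, -0.21 and -1.10 in knockouts, and Top2a at -1.89, -0.07, 1.08, -0.39 and 2.50 against -1.36, -0.32, 0.65, -0.79 and -0.45. Their differences were -0.59 ± 0.49 and -0.70 ± 0.55 (adjusted p = 0.831 and 0.821, limma). Without control 3 the Mki67 difference was -0.13, and without control 5 the Top2a difference was -0.14. Mki67 probe 2 had means of -0.18 ± 0.29 (SD) in controls and -0.26 ± 0.83 in knockouts. Ccna2, cyclin A2, gave -0.52 ± 0.29, Pcna -0.30 ± 0.15, Mcm2 -0.26 ± 0.27 and Cdk1 -0.11 ± 0.25, none of them called. For 27 of the 39 lead probes the 95% interval lay within a 2-fold difference either way, and for 12 it did not, among them Mki67, Top2a, Ccnb2 and Cdc6. The Cdk1 difference, already near 0, was 0.04 without knockout 5.

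**Figure D3:**
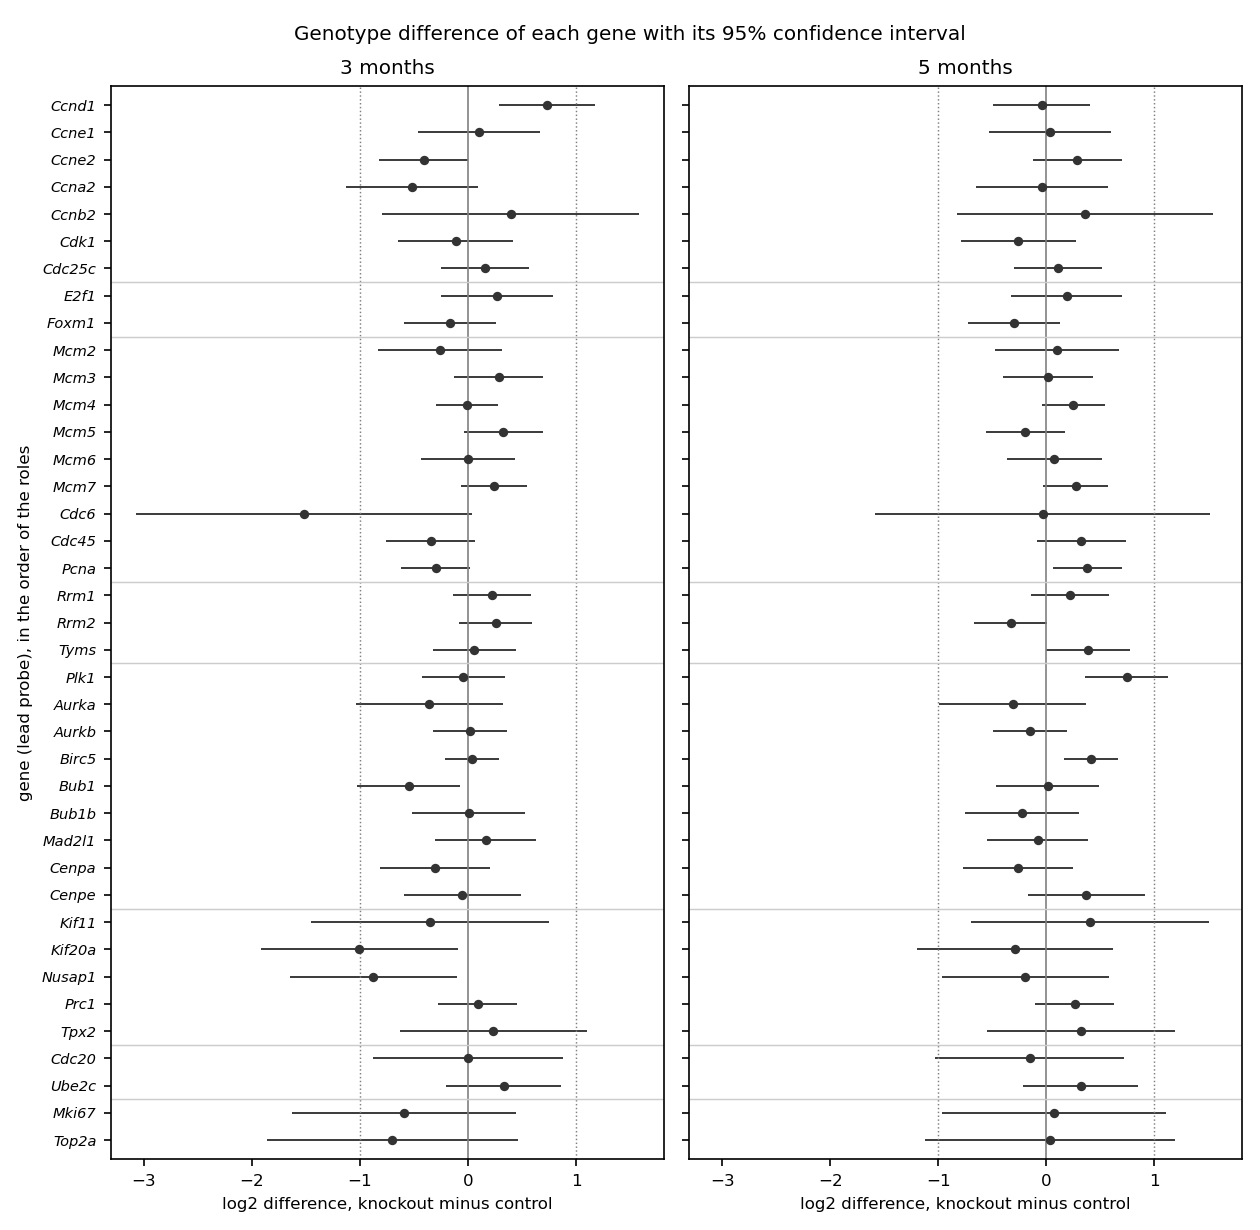
Log2 difference, knockout minus control, of the lead probe of each gene (rows, in the order of the roles) at 3 months (left) and 5 months (right), with 95% confidence intervals from limma (n = 5 mice per group) and dotted lines at a 2-fold difference. Cdc6, Ccnb2, Kif11, Mki67 and Top2a have the widest intervals, and Ccnd1 at 3 months and Plk1 and Birc5 at 5 months lie farthest from 0 in relation to theirs.

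At 5 months the same question gave another group of genes, again with 0 of 72 probes called against 0.145% of all probes (limma). At an unadjusted p under 0.05 there were 4 member probes (5.56%, against 10.5% of all probes), all higher in knockouts (7.07% of all probes): the lead probes of Plk1, Birc5, Pcna and Tyms. They belong to the mitotic kinases, the chromosomal passenger complex, the replication fork and thymidylate synthesis. The median member difference was 0.04 against 0.01 over all probes. Lead-probe medians by role were 0.04 for cyclins and CDK1, 0.10 for replication, 0.22 for deoxynucleotide supply, -0.08 for mitotic kinases and checkpoint, 0.26 for the spindle and 0.05 for Mki67 and Top2a.

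Plk1, the polo kinase that drives mitotic entry, gave the largest difference and the smallest p. Its 5-month controls were at 0.34, 0.12, 0.23, -0.29 and 0.15 and its knockouts at 0.49, 0.72, 1.09, 1.22 and 0.77. The groups did not overlap, as was true of 2.59% of all probes in that direction. The difference was 0.74 ± 0.18 SE (95% interval 0.36 to 1.13), 1.68-fold, with an adjusted p of 0.133 (limma). It had 1 direction in both orientations, 1.01 in Cy5 and 0.46 in Cy3 arrays, and probe 2 of Plk1 gave 0.43 ± 0.21 with all 5 knockouts above the control mean. Within array series A, which held all 5-month controls and knockouts 1 and 2, the difference of Plk1 was 0.49, that of Birc5 0.41 and that of Pcna 0.41. It was called under quantile normalisation alone (1.12, adjusted p = 0.0307), and adjusted p ran from 0.0307 to 0.603 over the alternatives tried.

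Birc5, survivin of the chromosomal passenger complex, was the other lead probe without overlap. Controls were at -0.08, -0.20, 0.08, -0.49 and -0.08 and knockouts at 0.38, 0.13, 0.31, 0.37 and 0.12, a difference of 0.42 ± 0.12 (1.34-fold, adjusted p = 0.22, limma). Pcna was at 0.25, 0.07, 0.27, -0.47 and -0.01 in controls and at 0.46, 0.40, 0.18, 0.49 and 0.47 in knockouts. All 5 Pcna knockouts lay above the control mean and knockout 3 overlapped the controls; the difference was 0.38 ± 0.15 (adjusted p = 0.386). Tyms, thymidylate synthase, gave 0.39 ± 0.18 (adjusted p = 0.476, limma), with 4 of 5 knockouts above the control mean. That difference rests on 1 of 4 probes. Tyms probes 2, 3 and 4 had means of 0.53, 0.22 and -0.32 in controls and 0.62, 0.12 and -0.26 in knockouts. Control 4 was the lowest control for Plk1, Birc5, Pcna and Tyms alike, and without it the differences were 0.65, 0.33, 0.26 and 0.30.

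The rest of the lead probes differed by at most 0.40 on the log2 scale. Kif11 gave 0.40 ± 0.53, which was -0.11 without control 3, a mouse at -1.76 where the other controls ran from 0.45 to 1.10. Cenpe gave 0.37 ± 0.26, Ccnb2 0.36 ± 0.57 and Rrm2 -0.33 ± 0.16. Cenpe probes 2 and 3 had means of 0.79 and 0.71 in controls and 0.40 and 0.81 in knockouts. Rrm2 probes 2, 3 and 4 were higher in knockouts, with means of -0.37, -0.06 and 0.01 against -0.50, -0.10 and -0.11. The proliferation marks were near 0: Mki67 0.07 ± 0.49 (95% interval -0.96 to 1.11), Top2a 0.03 ± 0.55 (-1.13 to 1.19), Cdk1 -0.26 ± 0.25 (-0.79 to 0.27), Ccnd1 -0.04 ± 0.21 (-0.49 to 0.40) and Mcm2 0.10 ± 0.27 (-0.48 to 0.67). The interval of Top2a holds a 2-fold difference in either direction and that of Mki67 a 2-fold higher level in knockouts. Both intervals use 1 spread per probe over all 20 mice, so the scatter at 3 months widens them. The SDs of Top2a were 1.64 and 0.74 in 3-month controls and knockouts, and 0.29 and 0.55 at 5 months. This fit does not settle whether these genes differed. In all, 30 of 39 lead probes had an interval within a 2-fold difference either way.

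**Figure D4:**
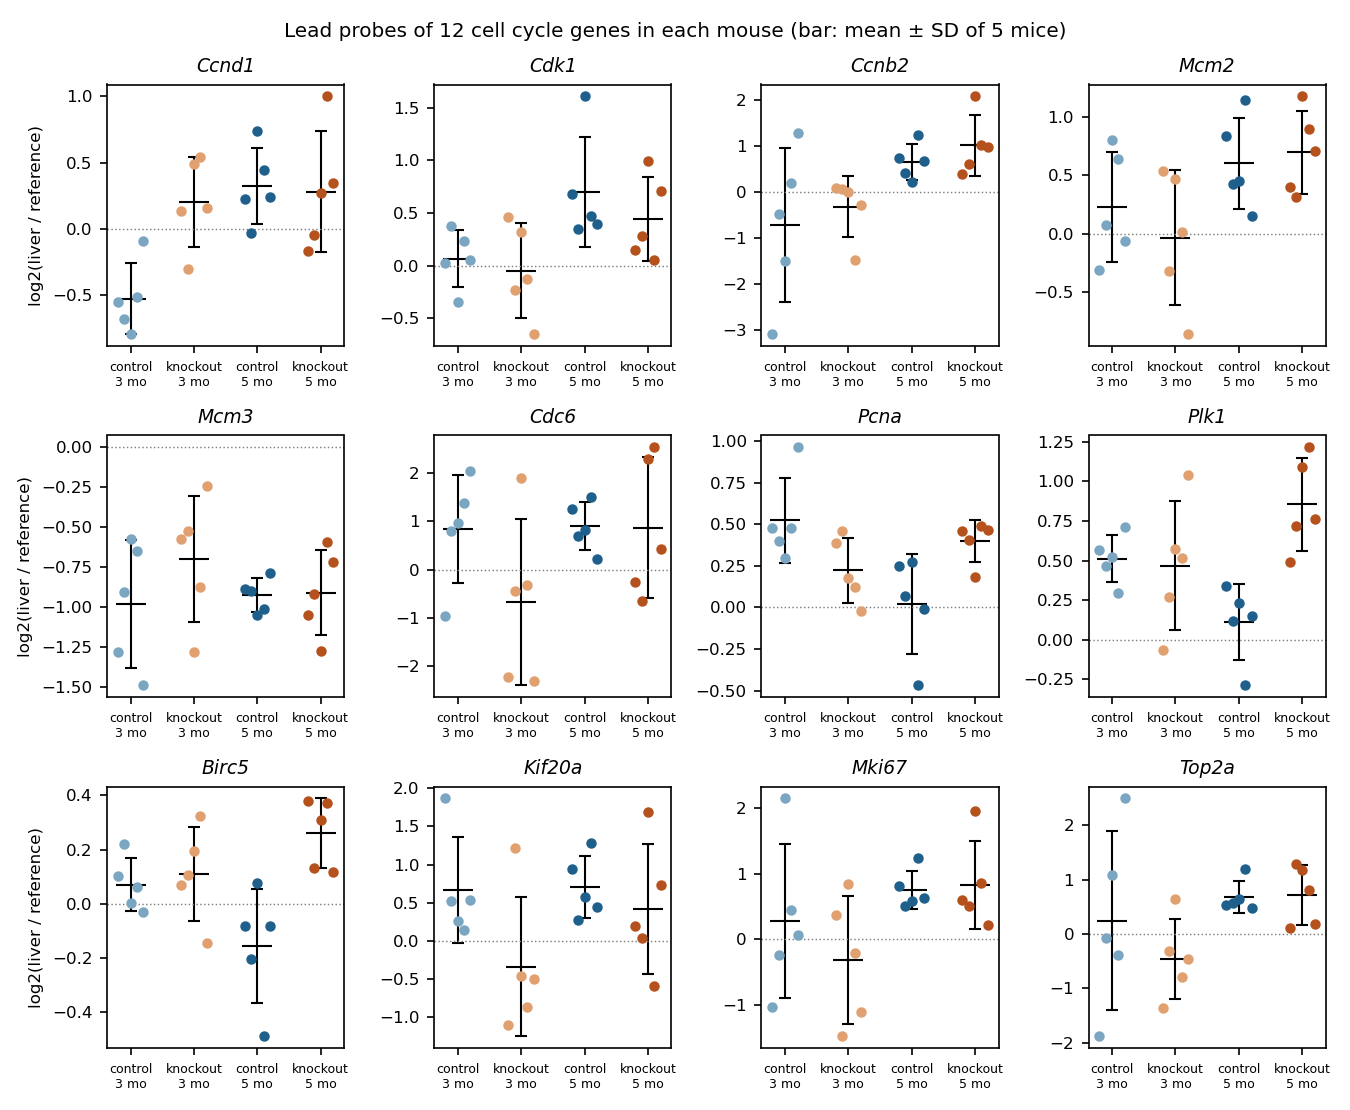
Log2 ratio of liver over reference for the lead probes of 12 genes, with 1 point per mouse, 5 mice per group, and bars at the mean ± SD. Plk1 and Birc5 show no overlap between 5-month controls and knockouts, Ccnd1 is low in 3-month controls, and Mki67, Top2a, Ccnb2 and Cdc6 scatter widely at 3 months.

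Whether the genotype difference itself changed between the ages was tested as an interaction. No member probe was called, and 0 of all 36607 probes were (0%, limma). At an unadjusted p under 0.05 there were 10 of 72 member probes (13.9%, against 7.74% of all probes). They were lead probes of Pcna, Plk1, Birc5, Ccne2 and Cdc45, Cenpa probe 2 and Rrm2 probe 4, with a higher genotype difference at 5 months (5.61% of all probes), and lead probes of Ccnd1, Mcm5 and Rrm2, with a lower one (2.14%). Pcna had the smallest p: its genotype difference was -0.30 at 3 months and 0.38 at 5 months, a change of 0.68 ± 0.22 (adjusted p = 0.488). Plk1 changed by 0.79 ± 0.26 (adjusted p = 0.507), and Ccnd1 by -0.77 ± 0.30 (adjusted p = 0.564, limma). All 5 spindle lead probes had an interaction above 0 (median 0.68), as did 57.4% of all probes.

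Array orientation was a further measure of how firm the genotype differences are. At 3 months 40 of 72 member probes had the same sign in the Cy5 arrays alone and in the Cy3 arrays alone (57.2% of all probes), and at 5 months 32 of 72 did (55.1% of all probes). Among genes with several probes, 10 of 20 had probes of both signs at 3 months and 10 of 20 at 5 months. Mki67 at 5 months was -0.71 in Cy5 and 0.65 in Cy3 arrays, Cdc6 -1.22 and 1.17, and Cdk1 -0.78 and 0.16. Pcna, in contrast, gave 0.29 and 0.52.

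**Figure D5:**
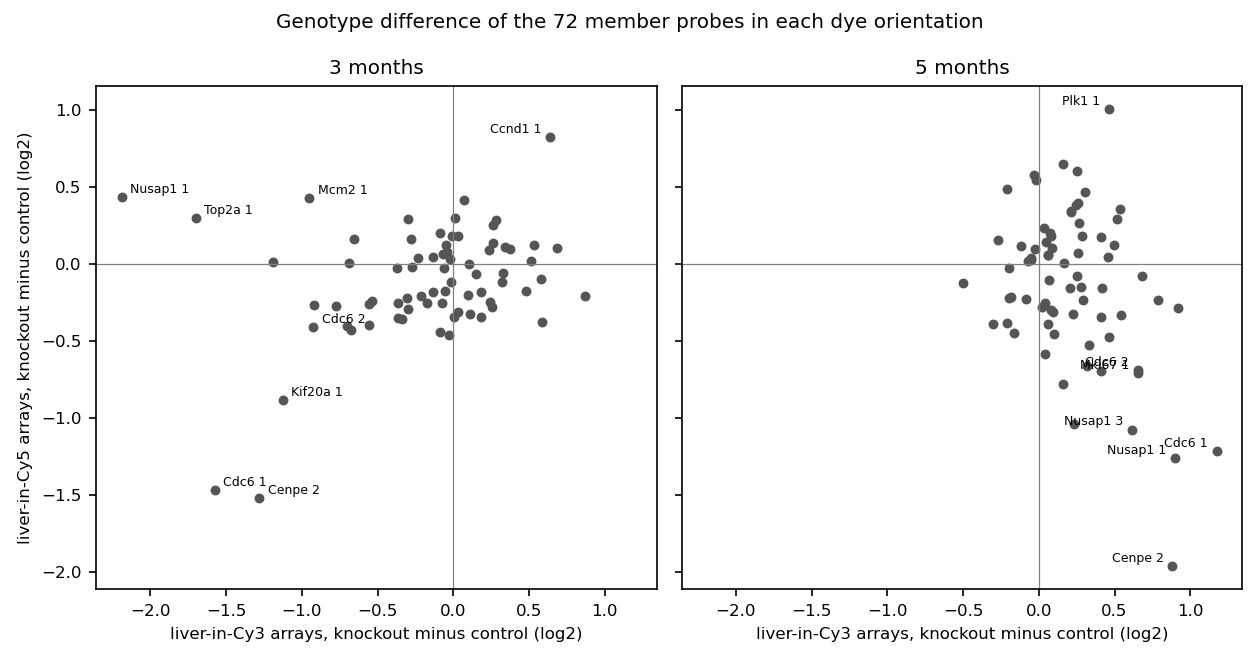
Log2 difference, knockout minus control, of the 72 member probes computed from liver-in-Cy3 arrays (horizontal axis) and liver-in-Cy5 arrays (vertical axis) at 3 months (left) and 5 months (right); gene names carry the probe number. Points in the lower left and upper right quadrants have 1 sign in both dyes, 40 of 72 at 3 months and 32 of 72 at 5 months, and Nusap1 and Cdc6 at 5 months lie in opposite-sign quadrants.

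Between the ages, within a genotype, more members were called, but the dyes often gave opposite directions. Both orientations gave the same direction for 25 of 72 member probes in controls and 32 of 72 in knockouts. These are 34.7% and 44.4%, against 43.7% and 45.6% of all probes. In both genotypes the median member difference was higher at 5 months in Cy5 arrays alone and lower in Cy3 arrays alone. In controls 6 of 72 probes were called between 5 and 3 months (8.33%, against 14.7% of all probes): Ccnd1, Foxm1 and Tyms probe 2 were higher at 5 months, and Pcna, Cenpa probe 2 and Cdc20 probe 3 were lower (7.41% and 7.25% of all probes). In knockouts 6 were called (8.33%, against 4.73% of all probes): Ccne2, Cdc45, Tyms probe 2, Birc5 probe 2 and Cenpe were higher and Aurkb was lower (3.99% and 0.743%). Groups of the 2 ages did not overlap for 2 member probes higher and 2 lower in controls (6.48% and 6.03% of all probes) and for 5 higher and 1 lower in knockouts (4.85% and 2.04%). Tyms probe 2 was the 1 probe in both lists. The median member difference was 0.17 in controls and 0.27 in knockouts, where all probes had 0.13 and 0.14, an offset that array centring removes. With centred arrays the calls were 2 higher and 7 lower in controls and 4 higher and 3 lower in knockouts, counts without the share of all probes beside them.

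Ccnd1 at 5 months was at 0.23, -0.03, 0.74, 0.44 and 0.24 in controls, all above every 3-month control, a difference of 0.85 ± 0.21 SE (1.80-fold, adjusted p = 0.0145, limma). Ccnd1 probes 2, 3 and 4 gave 0.06, -0.19 and -0.19 in controls, so the call rests on 1 of 4 probes. In knockouts, whose 3-month level on the lead probe was already above the reference in 4 of 5 mice, the same difference was 0.08 ± 0.21. Foxm1, the transcription factor of mitotic genes, was at 0.02, -0.77, -0.77, 0.18 and -0.58 in 3-month controls and at 0.42, 0.07, 0.36, 0.45 and 0.45 at 5 months, a difference of 0.73 ± 0.20 (adjusted p = 0.0232, limma). Foxm1 probe 2 gave 0.04 and lay below the reference on average at both ages. Pcna went the other way in controls, by -0.50 ± 0.15 without overlap (adjusted p = 0.0347), and gave 0.18 ± 0.15 in knockouts. Cdc20 probe 3, for the activator of anaphase ubiquitination, differed by -0.52 ± 0.15 and Cenpa probe 2, for the histone of centromeres, by -0.48 ± 0.14 (adjusted p = 0.0303 and 0.0302, limma). The lead probes of Cdc20 and Cenpa gave 0.39 and 0.34, and that of Tyms -0.35, each opposite to the called probe of its gene.

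In knockouts the smallest p was that of Ccne2, at -0.62, -0.53, -0.00, -0.22 and -0.48 at 3 months and 1.24, 0.71, 0.85, 0.32 and 0.31 at 5 months. The groups did not overlap and the difference was 1.06 ± 0.20 (2.08-fold, adjusted p = 0.0129, limma). Birc5 probe 2 differed by 1.5 ± 0.34, Cenpe by 1.16 ± 0.26, Tyms probe 2 by 0.96 ± 0.24 and Cdc45 by 0.74 ± 0.20, with adjusted p from 0.0227 to 0.0411. Aurkb differed by -0.59 ± 0.16 (adjusted p = 0.0447). Second probes of Ccne2 and Cdc45 gave 0.89 and 0.13, probes 1 and 3 of Birc5 0.15 and 0.06, probes 2 and 3 of Cenpe 0.45 and 0.88, and probes 1, 3 and 4 of Tyms -0.02, 0.18 and -0.05, none of them called. In controls the same probes gave 0.36 (Ccne2), 0.56 (Birc5 probe 2), 0.74 (Cenpe), 0.73 (Tyms probe 2), 0.07 (Cdc45) and -0.43 (Aurkb).

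Mouse by mouse, the other called probes were as follows. Tyms probe 2 was at -0.31, -0.42, -0.35, 0.41 and -0.34 in 3-month controls and at 0.94, 0.10, 0.39, 0.78 and 0.45 at 5 months, while in knockouts no 3-month mouse was above 0.14 and no 5-month mouse below 0.35. Cenpa probe 2 was at 0.14, 0.21, 0.58, 0.16 and -0.04 in 3-month controls and at -0.13, -0.36, -0.16, -0.43 and -0.28 at 5 months. Every 5-month control was below every 3-month control for Cenpa probe 2, and Tyms probe 2 overlapped between the ages in controls alone. Cdc20 probe 3 was at -0.38, -0.33, -0.01, 0.12 and 0.11 in 3-month controls and at -0.65, -0.40, -0.35, -1.17 and -0.52 at 5 months, with overlap. In knockouts Cdc45 was at 0.12, 0.22, 0.00, 0.12 and 0.41 and then at 1.00, 0.70, 1.26, 0.66 and 0.93. Birc5 probe 2 was at -0.94, -0.81, -0.53, -0.72 and -1.13 and then at -0.02, 1.10, 0.93, 1.05 and 0.30. Neither Cdc45 nor Birc5 probe 2 overlapped between the ages. Cenpe was at -0.91, -0.42, -0.23, -0.36 and 0.21 and then at 1.41, 1.12, 1.14, 0.27 and 0.17, and Aurkb at -0.36, -0.50, -0.93, -0.60 and -0.13 and then at -1.51, -1.28, -0.83, -0.95 and -0.92. Both overlapped slightly.

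The mitosis genes had wide differences between the ages that did not pass. In knockouts Top2a gave 1.17 ± 0.55, Mki67 1.14 ± 0.49, Tpx2 0.97 ± 0.42, Ccna2 0.91 ± 0.29 and Nusap1 0.83 ± 0.37, with all 5 mice of 5 months above the 3-month mean for Top2a, Mki67 and Ccna2 (adjusted p from 0.071 to 0.19, limma). Ccnb2, cyclin B2, gave 1.37 ± 0.57 in controls and 1.33 ± 0.57 in knockouts. The within-group SD of mice was larger at 3 than at 5 months for 56 of 72 member probes, against 74.2% of all probes. The control count was 1 without 5-month control 4, 2 without 3-month control 2, 3 without 3-month control 3 and 11 without 3-month control 5; the knockout count was 1 without 5-month knockout 3, 2, 3 and 3 without 3-month knockouts 1, 2 and 4, and 0 without 5-month knockouts 2 and 3. With the array series as a random block, the counts were 1 and 3. The share of all probes under each of these settings is not given, so the changes in count may not be particular to the members.

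The other genes of the pathway were looked at in 4 further lists, by lead probe, and none was called between the genotypes at either age, against 0.0355% and 0.145% of all probes. At an unadjusted p under 0.05 (limma), 2.14% of all probes were higher and 5.82% lower at 3 months, and 7.07% and 3.41% at 5 months. Among 15 measured inhibitors of cyclin-dependent kinases and pocket proteins, 1 was lower at 3 months and 2 higher and 1 lower at 5 months at an unadjusted p under 0.05. The largest differences were Cdkn2a (p16 and ARF) at 3 months, -0.79 ± 0.50, and Wee1, the kinase that holds CDK1 inactive, at 5 months, -1.02 ± 0.32 (adjusted p = 0.277, limma). Among 27 other cyclins, CDKs and E2F or MuvB factors, Tfdp2, a partner of E2F, led at 3 months (0.49 ± 0.28) and Ccnh, cyclin H, at 5 months (0.78 ± 0.39). Among 42 other replication factors, 3 were lower at 3 months and 4 higher at 5 months at that level, led by the polymerase gene Pole (-1.01 ± 0.51) and the kinase gene Cdc7 (0.55 ± 0.34). Among 39 other mitosis factors 2 were lower at 3 months and 1 was higher at 5 months, led by Melk (-0.92 ± 0.55) and Kif18a (0.67 ± 0.62).

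Markers of other liver cell types were measured beside these genes, and none was called between the genotypes. At 5 months the mean of 9 Kupffer cell and macrophage markers ran from -0.58 to -0.02 in controls and from -0.16 to 0.45 in knockouts, with 6 of 9 higher in knockouts at an unadjusted p under 0.05, as were 7.07% of all probes. The mean of 8 endothelial markers ran from -0.38 to -0.15 and from -0.05 to 0.04, with 4 of 8 higher, and that of 10 hepatocyte markers from -0.42 to 0.20 and from 0.09 to 0.32, again with 4 higher. The mean of 7 neutrophil and bone marrow markers ran from -0.55 to -0.20 and from -0.70 to -0.50 in 3-month controls and knockouts, and from -0.13 to 0.22 and from -0.31 to 0.01 at 5 months. At 5 months the median difference was -0.04 over 8 T and B lymphocyte markers, -0.02 over 7 erythroid markers, -0.09 over 8 stellate cell and fibroblast markers and 0.18 over 5 cholangiocyte markers. Between the ages, markers were called too. Of all probes, 7.25% were called lower and 7.41% higher at 5 months in controls, and 0.743% and 3.99% in knockouts. In controls at 5 months 3 of 9 Kupffer cell markers (median difference -0.46, Adgre1 -0.96 ± 0.26), 3 of 10 hepatocyte (-0.35), 2 of 7 erythroid (-0.41), 2 of 8 endothelial (-0.25) and 1 of 8 stellate cell and fibroblast markers (Vim, list median 0.18) were lower, while Ltf of the neutrophil list (0.75 ± 0.22) and Cftr of the cholangiocyte list (1.20 ± 0.32) were higher. None of 8 T and B lymphocyte markers was called. In knockouts S100a8 of the neutrophil list was called higher at 5 months (1.09 ± 0.24), and no other marker of the 8 lists was called. Their part in the differences of Plk1, Birc5 and Pcna, and in those between the ages, was not tested. Because liver is compared with liver, ratios near 0 show no absence of any cell type.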

How the data were processed

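Whole-liver RNA of 20 mice was measured on 38 2-colour arrays, each liver once in Cy5 and once in Cy3 in 18 mice. The deposited values are the authors' log2 ratios, normalised to the 50th percentile per the labels' protocols, though array medians were not at 0. The image analysis left out invalid features, and depth has no meaning for arrays, whose number limits the precision. Ratios of Cy3-labelled livers were reversed in sign, a dye effect per probe, taken from mice with 2 arrays, was removed, and arrays were averaged to 1 value per mouse. limma 3.58.1 in R 4.3.3 was fitted over all mice, with Benjamini-Hochberg adjustment over 36607 probes and calls at an adjusted p under 0.05. Of these probes 26926 carried 1 gene symbol in the platform annotation, 203 several and 9478 none. Nothing in the labels says more of the mice than that they are separate samples, so p-values measure the spread between them. Those against the reference hold no spread of normal livers.

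The members, the 4 further pathway lists and the 8 lists of cell type markers were chosen with earlier results of these data known. The rule named every member called in any comparison, in each genotype comparison the 8 lead probes with the largest differences, always Ccnd1, Mki67, Top2a, Pcna, Cdk1 and Mcm2, and the largest difference per further pathway list; other probes named were chosen after their values were seen. Mice with the same replicate number did not deviate together (r from -0.07 to 0.11 at 3 months and from -0.18 to 0.17 at 5 months), so the numbers do not pair them. Alternatives were another normalisation, single orientations, array series, a replicate block, the methods' p threshold in a limma fit of 1 age, and leaving out each mouse. The fit was tested on simulated data for the 5-month comparison: of 100 probes changed by 1 on the log2 scale 70 were called, and 93 of 100 changed by 2. Promoters were taken from RefSeq with Python 3.11.15 and pandas 2.3.3, and figures drawn with matplotlib 3.10.9.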

Additional observations from a re-analysis of the deposited data

Results flagged for a closer look

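In 15 of 156 groups of 5 mice, 1 for each lead probe and group, a single mouse stood far from the others, its gap to the nearest mouse taking most of the group's range. Chance gives such a mouse in about 1 in 20 groups. Among cyclins and CDK1, 5-month control 3 was at -0.12 for Ccne1 (nearest mouse -0.46) and at 1.61 for Cdk1 (nearest 0.68), 5-month control 2 at -0.19 for Ccna2 (nearest 0.48), and 3-month knockout 4 at -1.48 for Ccnb2 (nearest -0.28). Among transcription factors, 5-month knockout 4 was at -0.051 for E2f1 (nearest 0.53) and 5-month control 2 at 0.072 for Foxm1 (nearest 0.36). Pcna stood at 0.96 in 3-month control 5 (nearest 0.48) and at 0.18 in 5-month knockout 3 (nearest 0.40). Cenpa was at 1.09 in 5-month control 3, where the nearest control was at -0.12.

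The spindle genes held the widest gaps. Kif11 was at 2.23 in 3-month control 3 (nearest 0.48) and at -1.76 in 5-month control 3 (nearest 0.45). Kif20a was at 1.87 in 3-month control 1 (nearest 0.54) and at 1.22 in 3-month knockout 2 (nearest -0.46). Prc1, which bundles the microtubules of the midzone, was at -0.28 in 3-month knockout 5 (nearest 0.38), and Top2a at 1.19 in 5-month control 4 (nearest 0.65). The causes were not tested.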

How the results depend on the processing

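No member was called between the genotypes, at either age or in the interaction, when any 1 mouse was left out. Under quantile normalisation 1 member was called at 5 months (Plk1, 1.12), 13 between the ages in controls, and 10, 4 and 40 against the reference in 3-month controls, 3-month knockouts and 5-month controls, with a knockout age median of 0.091 (0.10 with centred arrays), and Mki67 and Top2a were both at -0.18 at 5 months. In Cy5 arrays alone, 36 were called between the ages in controls (median 0.73) and 27 in knockouts (0.52), and against the reference 48, 48, 5 and 6 in 3-month controls, 3-month knockouts, 5-month controls and 5-month knockouts. There Nusap1 (0.43), Top2a (0.30) and Mcm2 (0.43) turned at 3 months, and Ccnb2 (-0.23), Mki67 (-0.71), Top2a (-0.53), Ccnd1 (0.11) and Mcm2 (-0.082) at 5 months. In Cy3 arrays alone the counts were 14 (median -0.32) and 0 (-0.060) between the ages and 47 and 41 at 3 months against the reference, with a 5-month genotype median of 0.21 and Cdk1 at 0.16. Without the Cy5 array of 5-month control 4, 12 were called in 5-month controls; with that array turned, 3, and 1 between the ages in controls. Without 5-month knockouts 2 and 3 the counts were 0 between the ages and 10 against the reference, with Mki67 -0.20, Top2a -0.31 and Ccnd1 0.069. With gene means, 2 and 3 genes were called between the ages and 8, 10 and 13 in 3-month controls, 5-month controls and 5-month knockouts, with Mki67 -0.031 and Ccnd1 0.012. At the methods' threshold, an unadjusted p under 0.001, a limma fit of the 5-month mice alone passed 1 member. With the array series as a covariate, or within series A, the 5-month median was -0.13, Kif11 -0.064, Ccnb2 -0.16, Mki67 -0.20 and Mcm2 -0.25; within series C at 3 months Cdk1 was 0.10 and Pcna 0.031. With the series as a random block the counts were 1 and 3 between the ages and 11 in 5-month controls. With the replicate block, 0 members were called between the genotypes at either age, 5 and 7 between the ages, and over all probes 3 at 3 months and 16 at 5 months were called between the genotypes. Leaving out 1 mouse gave 1 to 11 calls between the ages in controls, 1 to 7 in knockouts, 10 to 18 against the reference in 5-month controls and, for 5-month knockouts, 13 to 20, and at 5 months Kif11 from -0.11 to 0.69, Mki67 from -0.21 to 0.23, Top2a from -0.11 to 0.18, Ccnd1 from -0.22 to 0.069 and Mcm2 from -0.024 to 0.23; Cdk1 at 3 months ran from -0.24 to 0.038. Taking the dye effect from mice of the same age, an alternative chosen after seeing the data, turned no direction and moved no count by over 1.5 times. The causes were not tested. Most counts in this section stand without the share of all probes under the same setting, so they do not set the members apart from the array. A filter on dim probes was not run, since the values hold no signal.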
